A study of Mus musculus with 13 samples.

Results

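The genes examined here are 10 genes of polyamine and arginine metabolism, Odc1, Azin1, Sat1, Aoc1, Arg1, Arg2, Srm, Sms, Oat and Slc7a2, measured in implantation sites that rat or mouse embryos had formed in mouse uteri. They were taken as every probe set whose only annotated symbol was 1 of these 10. This gave 17 probe sets for 9 genes, of the 18194 genes on the array that had a probe set with a single symbol. The 3 probe sets of Sms, the spermine synthase, were also annotated to the pseudogene Sms-ps, so Sms is not described. Of the 17 probe sets, 13 were bright enough to be tested, and they covered all 9 genes. The 4 others, 1 of Azin1 and 3 of Slc7a2, lay below the 60th percentile of their array on all 13 arrays.

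Polyamines (putrescine, spermidine and spermine) are small positively charged molecules that bind nucleic acids and are needed for cell growth and translation. Cells import arginine, arginases split it into ornithine and urea, ornithine decarboxylase turns ornithine into putrescine, and synthases extend putrescine to spermidine and spermine. Acetylation, export and oxidation by amine oxidases remove polyamines again, and ornithine can instead be turned towards proline and glutamate. In the pregnant mouse uterus, polyamine synthesis is known to be induced around the implanted embryo as the stroma turns into decidua.

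The 13 Affymetrix mouse arrays came from whole implantation sites, each holding the conceptus and the uterine tissue around it. All recipients were female ICR mice on day 3 of pseudopregnancy, and all embryos had been transferred, so the mouse sites were transfer pregnancies too. Groups on day 9 were rat sites in uteri that had also received mouse embryos (called co-transfer sites here, 2 arrays), rat sites in uteri with rat embryos alone (2 arrays) and mouse sites (2 arrays). The same groups on day 7 had 3, 2 and 2 arrays, with rat embryos from Wistar rats flushed on day 5 and mouse embryos flushed on day 4. About 100 mg of tissue went into an extract. Whether the arrays of 1 group stand for different mice is not stated in the labels, so a p-value here speaks of the spread among these arrays only, which may be technical.

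Every array had been scaled to a trimmed mean of 500, and array medians ran from 141.4 to 204.6. Arrays of the same group correlated with r of 0.968 to 0.982 across probe sets, which are not independent replicates. The probes match mouse transcripts, so an RNA of the rat conceptus may bind them poorly, and in whole tissue fewer cells of a type and less RNA per cell cannot be told apart. Of 7 decidual stroma markers, Prl8a2, a decidual prolactin-family hormone, was bright in all groups, at 22100.8 to 23607.3 in co-transfer sites, 16192.1 to 16877.0 in rat sites and 23554.2 to 30689.2 in mouse sites of day 9. Among the others, Prl3c1, another hormone of that family, read 9.0 and 89.2 in the rat sites of day 9. Tdo2, a tryptophan-degrading enzyme, read 392.3 and 493.5 there. The lowest signals in mouse sites of day 9 were 1446.1 for Prl3c1 and 10027.8 for Tdo2. By recorded hybridisation time, rat and mouse sites of day 7 lay in 1 batch, and so did co-transfer and rat sites of day 9. In the other comparisons batch and group cannot be told apart, and replicate 3 of the co-transfer sites of day 7 was alone on another date and scanner.

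On day 9, co-transfer and rat sites differed in 10 of the 13 tested probe sets, 3 higher and 7 lower in co-transfer sites, against 33.7% of all 22138 tested probe sets. Called here means an adjusted p under 0.05 in limma (Benjamini-Hochberg within a comparison). The co-transfer sites had more Aoc1, Azin1 and Srm and less Arg1, Arg2, Slc7a2 and Odc1. Arg1 is counted in these numbers and in those of rat against mouse sites that follow. It passed the filter on dim probe sets only through the rat arrays of day 9. Rat and mouse sites of day 9 differed in 8 of 13 probe sets, 4 higher and 4 lower in rat sites, against a background of 31.5%. Between co-transfer and mouse sites of day 9, 2 of 13 were called, against 7.72%, and both were probe sets of Odc1, lower in co-transfer sites. The median log2 change over the 13 probe sets was -0.55 for co-transfer minus rat, -0.15 for co-transfer minus mouse and 0.13 for rat minus mouse, beside -0.07, 0.00 and 0.06 over all tested probe sets. Of the 13, 3 belong to Odc1, 2 to Azin1 and 2 to Arg2. Over the 9 genes, each by its brightest tested probe set, the medians were -0.21, -0.08 and 0.16 in the same order. Comparisons against the same mouse arrays share those arrays, and comparisons against the same rat arrays share those.

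On day 7, no probe set of these genes was called between co-transfer and rat sites, where 0.967% of all probe sets were called and 1 of the 13 had an unadjusted p under 0.05. Of the 13, 6 were called between co-transfer and mouse sites (3 higher, 3 lower, background 31.2%), and 7 between rat and mouse sites (2 higher, 5 lower, background 24.4%). Srm and Slc7a2 were higher and Arg1, Sat1 and an Azin1 probe set lower in both groups of rat sites than in mouse sites. The median log2 change over the 13 was 0.10 for co-transfer minus rat, -0.04 for co-transfer minus mouse and -0.05 for rat minus mouse, beside 0.00, 0.05 and 0.03 over all tested probe sets.

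Between the days, 9 of 13 probe sets were called in co-transfer sites (4 higher and 5 lower on day 9, background 25.2%), 7 in rat sites (5 higher and 2 lower, background 39.3%) and 10 in mouse sites (6 higher and 4 lower, background 44.2%). A test of whether a difference between groups changed from day 7 to day 9 called 9 of 13 for co-transfer minus rat (background 26.1%), 7 for co-transfer minus mouse (background 18.8%) and 7 for rat minus mouse (background 32.6%). Arg1 is counted in the 7 of rat sites and in the changes of co-transfer minus rat and of rat minus mouse. These all rest on the rat arrays of day 9, through which alone Arg1 passed the filter.

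**Figure D1:**
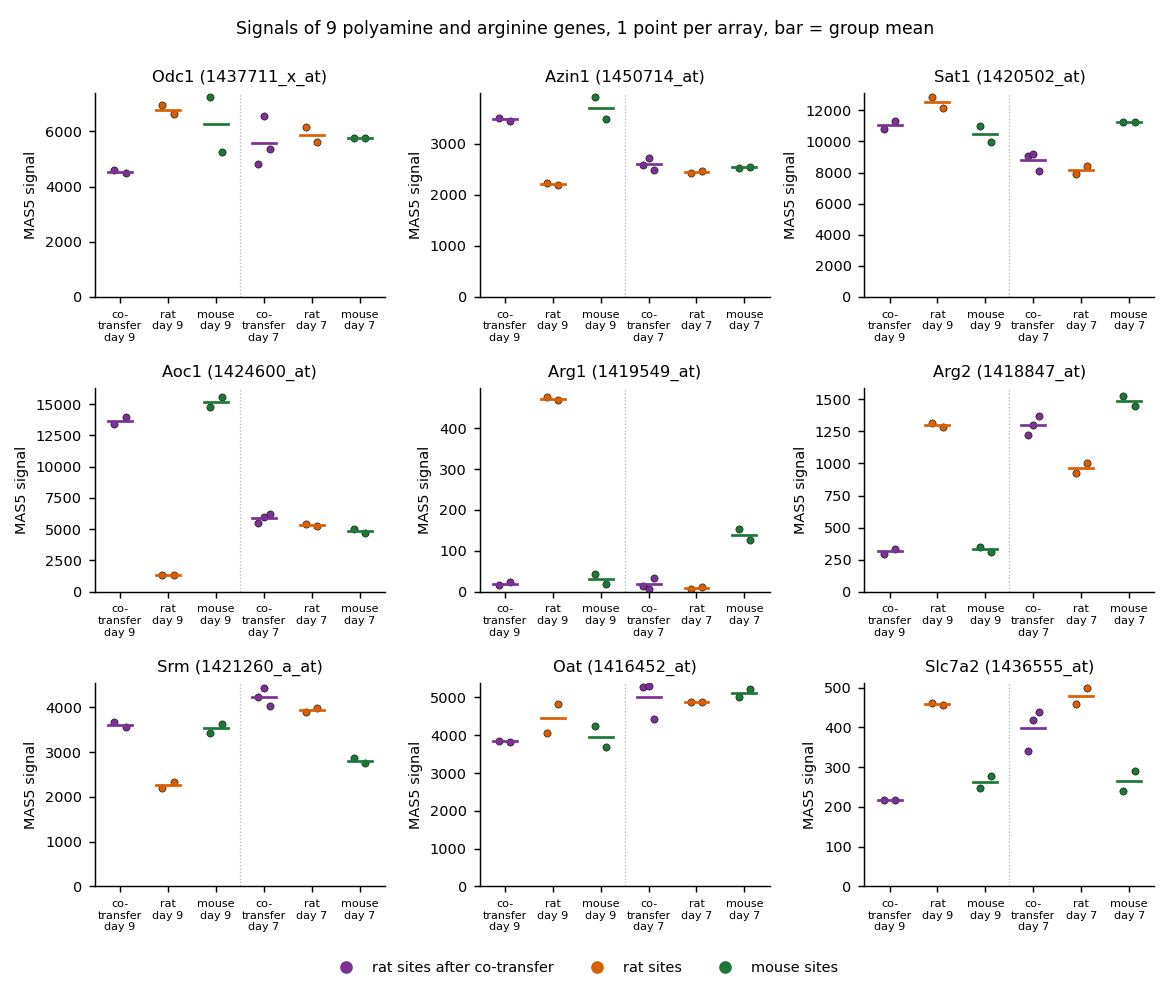
Deposited MAS5 signal (linear axis from 0) of each of the 9 genes (the brightest of its tested probe sets), with 1 point per array and a bar at each group's mean. On day 9 the rat sites stand apart from both other groups for Aoc1 (1358.6 and 1357.1), Arg2, Srm, Azin1, Slc7a2 and Sat1. No Sat1 comparison of day 9 was called. The rat sites also stand apart for Arg1, which passed the filter on dim probe sets only through those arrays.

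Aoc1 encodes the secreted amine oxidase that degrades putrescine and histamine (diamine oxidase), a known product of the decidua. Its signals on day 9 were 13387.7 and 13947.1 in co-transfer sites, 1358.6 and 1357.1 in rat sites, and 14783.1 and 15603.6 in mouse sites. The rat sites lay far below both other groups, and the co-transfer arrays lay just under the mouse arrays with no overlap. Mean signal was 10.1 times as high in co-transfer as in rat sites (log2 change 3.28 ± 0.09, SE, adjusted p = 1.82e-08), and Aoc1 was lower in rat than in mouse sites by a log2 change of -3.43 ± 0.09 (adjusted p = 8.62e-09). Co-transfer and mouse sites did not pass the test (-0.15, 95% interval -0.36 to 0.05).

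On day 7, Aoc1 read 5530.7, 5976.7 and 6254.8 in co-transfer sites, 5395.3 and 5276.1 in rat sites, and 5000.2 and 4684.2 in mouse sites. The groups were close to each other and did not overlap. Only co-transfer minus mouse was called (0.29 ± 0.08, adjusted p = 0.0264). That call was lost without either mouse array (adjusted p = 0.0610 and 0.168), without co-transfer replicate 2 (0.0558) or 3 (0.0745), and when arrays were centred on their median (0.11, adjusted p = 0.474). From day 7 to day 9 Aoc1 rose in co-transfer sites (log2 change 1.20 ± 0.08, adjusted p = 8.61e-06) and in mouse sites (1.64 ± 0.09, adjusted p = 1.04e-06), and fell in rat sites (-1.93 ± 0.09, adjusted p = 2.82e-07). The order of the 6 groups by mean, all without overlap between neighbours, was mouse and then co-transfer sites of day 9, co-transfer, rat and mouse sites of day 7, and last the rat sites of day 9.

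Within day 9, markers of decidual stroma and of uterine natural killer cells were, like Aoc1, lowest in the rat sites. On day 9 the summed signal of 7 decidual stroma markers was 71938.7 to 73758.7 in co-transfer sites, 21060.6 to 21724.3 in rat sites and 57664.2 to 63756.7 in mouse sites. All 7 were lower in rat sites than in either other group. Their part in the Aoc1 result was not tested. On day 7 the sums were 82334.6 to 86689.6 in co-transfer sites, 81067.0 to 82781.1 in rat sites and 52872.0 to 54664.1 in mouse sites, while Aoc1 differed little. In co-transfer sites these sums were lower on day 9 than on day 7, while Aoc1 rose. The 4 tested markers of uterine natural killer cells of 6 were also all lower in the rat sites of day 9, with sums of 18194.7 to 18466.3 in co-transfer sites, 10211.8 to 10301.2 in rat sites and 26343.5 to 27995.1 in mouse sites. Their sums on day 7 were 4706.9 to 5086.4 in co-transfer, 7128.6 to 7266.0 in rat and 9559.3 to 9673.7 in mouse sites, the reverse of the order of Aoc1.

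The 250 bases before each annotated start of Aoc1 and of Odc1 (RefSeq, GRCm38.p6) are shown because Aoc1 breaks down the putrescine that Odc1 makes, and because their starts differ in base composition. Capitals mark the GC box GGGCGG or its reverse complement.
Aoc1, first start, chr6:48895005-48895254, plus strand: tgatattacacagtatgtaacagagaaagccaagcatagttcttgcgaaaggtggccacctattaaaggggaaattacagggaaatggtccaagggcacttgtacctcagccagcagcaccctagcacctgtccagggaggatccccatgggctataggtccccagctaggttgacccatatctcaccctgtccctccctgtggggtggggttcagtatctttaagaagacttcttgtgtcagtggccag
Aoc1, second start, chr6:48904736-48904985, plus strand: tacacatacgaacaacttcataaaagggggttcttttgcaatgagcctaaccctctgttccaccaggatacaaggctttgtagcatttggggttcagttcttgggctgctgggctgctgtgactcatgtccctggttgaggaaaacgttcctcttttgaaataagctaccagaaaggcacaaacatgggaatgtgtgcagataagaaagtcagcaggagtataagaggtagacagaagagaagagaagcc
Odc1, chr12:17544623-17544872, plus strand: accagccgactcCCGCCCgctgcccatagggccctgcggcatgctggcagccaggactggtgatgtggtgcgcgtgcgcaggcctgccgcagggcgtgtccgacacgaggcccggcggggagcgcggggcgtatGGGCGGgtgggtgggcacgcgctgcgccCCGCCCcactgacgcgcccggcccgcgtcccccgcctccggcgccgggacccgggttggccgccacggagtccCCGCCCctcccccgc
The GC content was 51.2% and 45.6% for the Aoc1 windows and 80% for Odc1, beside a median of 52.4% over all promoters of the table. The Odc1 window held 4 GC boxes, starting 238, 116, 88 and 15 bases before the start of the gene, and the Aoc1 windows held 0. Of 32851 windows of 250 bases, 32.7% held GGGCGG on either strand, 12.4% held TATAAA and 6.02% CACGTG, and neither of these last motifs lay in the 3 windows shown. Of the 10 genes, 5 had a promoter in the table. A match to these letters is not a binding site, and its absence says nothing about a factor.

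Arginine enters these reactions through the cationic amino acid transporters, of which Slc7a2 was measured by 1 tested probe set. On day 9 it read 218.3 and 217.1 in co-transfer sites, 462.2 and 456.5 in rat sites, and 248.8 and 277.6 in mouse sites. Rat sites were highest without overlap, and the log2 change was -0.91 ± 0.13 for co-transfer minus rat (adjusted p = 0.000358) and 0.69 ± 0.13 for rat minus mouse (adjusted p = 0.00220). The co-transfer and mouse signals of day 9 all lay below the 60th percentile of their arrays. On day 7 it read 340.5, 418.0 and 438.1 in co-transfer sites, 459.6 and 498.8 in rat sites, and 240.5 and 291.5 in mouse sites. Both groups of rat sites lay above the mouse sites, by 0.50 ± 0.11 for co-transfer (adjusted p = 0.00935) and 0.73 ± 0.13 for rat sites (adjusted p = 0.00247). The co-transfer call was lost without mouse replicate 1 (0.38, adjusted p = 0.0868), with arrays centred on their median (0.32, adjusted p = 0.0844) and when only the arrays of those groups were fitted (adjusted p = 0.0556). Between days Slc7a2 was called only in co-transfer sites, where it fell by 0.72 on the log2 scale (adjusted p = 0.00138). The 3 untested Slc7a2 probe sets had signals of 208.5 or less on all arrays.

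Arg1, the cytosolic arginase known from liver and from macrophages, was dim on most arrays. Its signals on day 9 were 15.2 and 23.0 in co-transfer sites, 475.3 and 468.3 in rat sites, and 42.6 and 19.7 in mouse sites. It passed the filter on dim probe sets only through the 2 rat arrays of day 9, so its distance from that group is partly built in and its tests against that group are not used as results. The log2 change, whose size depends on the added constant of 57.1, was -2.80 for co-transfer minus rat (-3.81 with a constant of 16 and -1.74 with 173.7) and 2.60 for rat minus mouse (3.41 and 1.66). Between co-transfer and mouse sites it was -0.20 (95% interval -0.60 to 0.20), with overlapping arrays.

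On day 7 the Arg1 signals were 12.7, 6.2 and 34.5 in co-transfer sites, 7.0 and 10.9 in rat sites, and 152.3 and 125.5 in mouse sites. Here the mouse sites were the high group, although below the 60th percentile of their arrays. Arg1 was lower than in mouse sites in co-transfer sites (-1.40 ± 0.16, adjusted p = 0.000222) and in rat sites (-1.57 ± 0.18, adjusted p = 0.000266). All arrays of both groups of rat sites were below the constant, so these sizes follow from it: they were -2.28 and -2.63 with a constant of 16 and -0.71 and -0.77 with 173.7, and were called each time. In mouse sites Arg1 fell between the days (-1.16 ± 0.18, adjusted p = 0.000717; -1.75 with a constant of 16 and -0.61 with 173.7), and in co-transfer sites it had a log2 change of 0.04 (adjusted p = 0.887).

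Markers of several cell types were high in the same groups as Arg1. The summed signal of 7 markers of uterine epithelium was 8502.3 to 8688.8 in co-transfer sites, 52490.0 to 54625.2 in rat sites and 14600.9 to 14808.3 in mouse sites of day 9, and all 7 were higher in rat than in co-transfer or mouse sites. On day 7 it was 9572.8 to 10168.9 in co-transfer sites, 9391.8 to 9677.9 in rat sites and 27434.7 to 27465.5 in mouse sites. The 5 smooth muscle markers summed to 41713.3 to 43941.5 in co-transfer sites, 58664.2 to 60317.6 in rat sites and 42198.7 to 44292.0 in mouse sites of day 9, with 4 of 5 higher in rat than in either other group. On day 7 their sums were 44806.8 to 48790.1 in co-transfer sites, 50973.3 to 51094.3 in rat sites and 57524.2 to 57832.0 in mouse sites.

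Markers of macrophages and neutrophils were mixed. Of the 6 tested macrophage markers of 7, 1 was higher and 4 lower in rat than in mouse sites of day 9. The higher one, Cd14, a lipopolysaccharide co-receptor, was ordered like Arg1, with means of 1668 in co-transfer sites, 6109 in rat sites and 1862 in mouse sites of day 9, and of 1056 in co-transfer, 910.5 in rat and 3709 in mouse sites of day 7. Csf1r, the receptor for macrophage colony-stimulating factor, averaged 10814 in co-transfer sites, 4084 in rat sites and 9869 in mouse sites of day 9, and the sums over the 6 were 17371.7 to 18004.7 in co-transfer sites, 14902.4 to 16574.4 in rat sites and 19208.8 to 19555.2 in mouse sites. Of the 4 tested neutrophil markers of 6, 2 were higher and 1 lower in rat than in mouse sites of day 9. S100a8 made up most of their sums (17438.3 to 18495.7 in co-transfer sites, 6314.9 to 6604.3 in rat sites and 21441.9 to 21866.9 in mouse sites) and was lowest in rat sites. S100a9, its partner in calprotectin, averaged 186.8 in co-transfer sites, 2417.5 in rat sites and 768.5 in mouse sites of day 9, and Csf3r and Mpo also had their highest means of that day in rat sites. The neutrophil sums of day 7 were 1279.0 to 1429.1 in co-transfer sites, 1347.3 to 1441.0 in rat sites and 5351.5 to 5559.2 in mouse sites. The part of any of these cells in the Arg1 and Arg2 results was not tested.

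Over the 13 arrays, the 3 other genes whose log2 signals were most like Arg1 were Cldn7, an epithelial tight junction claudin (Pearson r = 0.99), Plin2, a lipid droplet coat protein (0.99), and Unc5cl (0.98). Those most like Aoc1 were Npc2, a lysosomal cholesterol carrier (0.99), Cyb5r3, a cytochrome b5 reductase (0.99), and Slc44a2, a choline transporter-like protein (0.99). These correlations describe 13 arrays in 6 groups, and the groups make up most of the spread. Mean Cldn7 signal on day 9 was 525.2 in co-transfer sites, 6946.5 in rat sites and 727.7 in mouse sites, and mean Npc2 signal was 16358.4 in co-transfer sites, 7843.0 in rat sites and 17065.1 in mouse sites.

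Arg2, the mitochondrial arginase, was measured by 2 probe sets that correlated at r = 0.99 over the 13 arrays. The brighter read 295.9 and 336.1 in co-transfer sites, 1316.5 and 1287.0 in rat sites, and 351.2 and 312.3 in mouse sites of day 9. Rat sites stood apart, while co-transfer and mouse sites overlapped. Mean signal in rat sites was 3.92 times that in mouse sites (1.81 ± 0.10, adjusted p = 8.60e-07), and co-transfer sites were lower than rat sites by -1.87 ± 0.10 (adjusted p = 6.74e-07). The other probe set gave 2.18 for rat minus mouse and -2.24 for co-transfer minus rat.

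On day 7 the brighter Arg2 probe set read 1219.2, 1301.9 and 1372.8 in co-transfer sites, 924.7 and 1007.5 in rat sites, and 1529.0 and 1444.4 in mouse sites. No groups overlapped, with rat sites lowest and mouse sites highest. Rat minus mouse was called for both probe sets (-0.59 and -0.54, adjusted p = 0.00262 and 0.0229), and the call of probe set 1438841_s_at was lost without either mouse array (adjusted p = 0.0818 and 0.0974) or without rat replicate 1 (-0.39, adjusted p = 0.161). That call was also lost with no filter on dim probe sets (0.0681), under quantile normalization (0.0556) and when only the arrays of those groups were fitted (0.0654). Co-transfer minus rat of the brighter probe set reached 0.40 ± 0.09 with an adjusted p of 0.0897, and passed only with the filter set at the 80th percentile (0.0275). From day 7 to day 9 Arg2 fell in co-transfer sites (-1.86 ± 0.09, adjusted p = 1.08e-06) and in mouse sites (-1.99 ± 0.10, adjusted p = 6.18e-07). In rat sites it rose by 0.41 ± 0.10 (adjusted p = 0.0105). The rise in rat sites was lost without replicate 1 of day 7 (adjusted p = 0.0723), without replicate 1 of day 9 (0.0506) and with arrays centred on their median (0.16, adjusted p = 0.358), and the other Arg2 probe set did not pass (0.33, adjusted p = 0.0999).

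Oat, the aminotransferase that takes ornithine towards proline and glutamate, was called between no groups on either day. On day 9 it read 3838.7 and 3830.9 in co-transfer sites, 4066.7 and 4833.9 in rat sites, and 4237.5 and 3694.2 in mouse sites. On day 7 it read 5274.0, 5314.3 and 4422.2 in co-transfer sites, 4891.1 and 4880.6 in rat sites, and 5013.8 and 5210.7 in mouse sites. The 95% interval of the day 9 difference was -0.48 to 0.07 for co-transfer minus rat and -0.12 to 0.44 for rat minus mouse. The co-transfer arrays lay below the rat arrays of day 9 without overlap, and that difference was called under quantile normalization (-0.35, adjusted p = 0.0499). Oat was lower on day 9 than on day 7 in co-transfer sites (-0.37, adjusted p = 0.0369) and in mouse sites (-0.36, adjusted p = 0.0374). The co-transfer call was lost without either array of day 9 (adjusted p = 0.144 and 0.148) or without replicate 1 or 2 of day 7 (0.0955 and 0.0984). The mouse call was lost without either array of day 7 (0.0914 and 0.140) or without replicate 2 of day 9 (0.198).

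**Figure D2:**
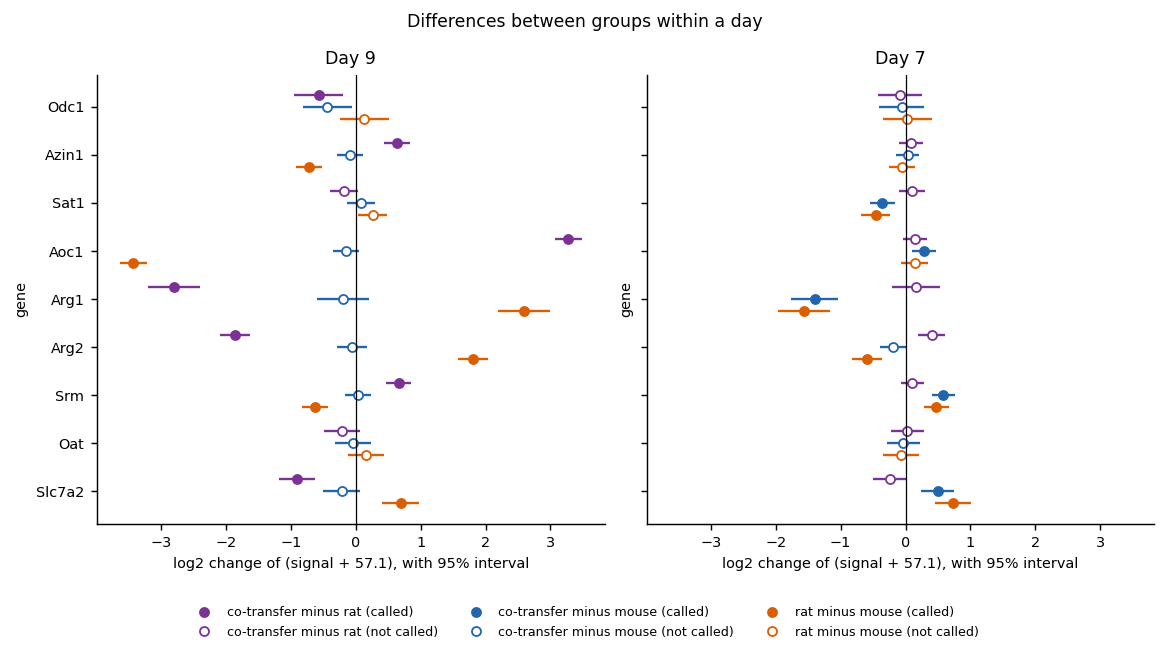
Log2 change of (signal + 57.1) between groups within day 9 (left) and day 7 (right) for 9 genes, with the 95% interval of the limma fit as a line. Filled points were called at an adjusted p under 0.05 and open points were not. Apart from Arg1, the largest changes are those of Aoc1 and Arg2 in the comparisons that involve the rat sites of day 9. Arg1 passed the filter on dim probe sets only through those rat arrays. Its plotted changes against them are not used as results.

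Odc1 encodes ornithine decarboxylase, the first committed enzyme of polyamine synthesis, and was measured by 3 probe sets. Probe set 1438761_a_at read 3842.0 and 3433.4 in co-transfer sites, 5509.1 and 5214.3 in rat sites, and 6217.2 and 5687.7 in mouse sites of day 9. Probe set 1427364_a_at read 893.7 and 748.4 in co-transfer sites, 1296.0 and 1399.3 in rat sites, and 1252.3 and 1604.7 in mouse sites. Probe set 1437711_x_at, with the highest mean, read 4599.5 and 4484.1 in co-transfer sites, 6953.8 and 6618.3 in rat sites, and 7254.2 and 5268.5 in mouse sites. In all 3 the co-transfer sites of day 9 lay below both other groups with no overlap.

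Against rat sites of day 9, all 3 Odc1 probe sets were lower in co-transfer sites, with log2 changes of -0.57 ± 0.17 (adjusted p = 0.0245), -0.55 ± 0.10 (0.00179) and -0.68 ± 0.15 (0.00637) in the order 1437711_x_at, 1438761_a_at and 1427364_a_at. Both groups were in 1 hybridisation batch. The call of 1437711_x_at was lost without any 1 of the 4 arrays (adjusted p = 0.0703 to 0.102) and with arrays centred on their median (-0.42, adjusted p = 0.155), and that of 1427364_a_at without co-transfer replicate 2 (0.0564). Against mouse sites, 1438761_a_at (-0.70 ± 0.10, adjusted p = 0.00224) and 1427364_a_at (-0.75 ± 0.15, adjusted p = 0.0157) were called and 1437711_x_at was not (-0.44 ± 0.17, adjusted p = 0.149). The call of 1427364_a_at was lost without mouse replicate 2 (0.106) or co-transfer replicate 2 (0.118). Batch and group cannot be told apart in that comparison, and both calls were lost when only the 4 arrays compared were fitted (adjusted p = 0.0917 and 0.134). Signals of conceptus markers differed as well. Sums over the 3 tested trophoblast markers of 6 were 1256.2 to 1306.1 in co-transfer and 20713.7 to 23580.0 in mouse sites. In rat sites of day 9 the trophoblast sums were 587.9 to 748.3. Sums over the 3 tested primitive erythroid markers of 4 were 37.9 to 123.1 in co-transfer and 47301.7 to 47893.7 in mouse sites. In rat sites of day 9 the erythroid sums were 1326.3 to 1422.2. The probes match mouse transcripts, so less of these tissues and poor binding of rat RNA cannot be told apart. The part of the conceptus in the Odc1 result was not tested.

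On day 7 no Odc1 probe set was called between any groups. Probe set 1437711_x_at read 4807.0, 6554.2 and 5361.2 in co-transfer sites, 6155.8 and 5618.4 in rat sites, and 5768.8 and 5767.6 in mouse sites, and all 3 groups overlapped. In mouse sites 1438761_a_at (0.50 ± 0.10, adjusted p = 0.00266) and 1427364_a_at (0.69 ± 0.15, adjusted p = 0.00481) were higher on day 9 than on day 7, and 1437711_x_at was not called (0.10). With arrays centred on their median the first of these was not called (0.22, adjusted p = 0.218), nor were those of the other kinds of site below. In rat sites only 1427364_a_at was called (0.50, adjusted p = 0.0254; 0.25 and 0.191 when centred), and that was lost without replicate 1 of day 7 (0.138) or either array of day 9 (0.0594 and 0.115). In co-transfer sites only 1438761_a_at was called, lower on day 9 (-0.29, adjusted p = 0.0399), and that was lost without either array of day 9 (0.0620 and 0.267) or without replicate 2 or 3 of day 7 (0.0979 and 0.0864). The 3 probe sets correlated with each other at r = 0.76, 0.42 and 0.83 over the 13 arrays. The genes most like Odc1 (1437711_x_at) were Syncrip, an RNA-binding protein (r = 0.94), Ube2d3, a ubiquitin-conjugating enzyme (0.87), and Ipo5, a nuclear import receptor (0.85).

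Azin1, the antizyme inhibitor that protects ornithine decarboxylase from antizyme-directed degradation, had 2 tested probe sets, and group means of 149.4 or less in another, untested one. The brighter, 1450714_at, read 3502.1 and 3450.3 in co-transfer sites, 2238.8 and 2184.0 in rat sites, and 3905.8 and 3475.7 in mouse sites of day 9. Rat sites were lowest without overlap, by a log2 change of 0.64 ± 0.09 for co-transfer minus rat (adjusted p = 0.000400) and -0.72 ± 0.09 for rat minus mouse (adjusted p = 0.000191). The other, 1422702_at, read 1746.7 and 1796.4 in co-transfer sites, 1521.2 and 1508.5 in rat sites, and 2175.4 and 2050.5 in mouse sites. It was lower in rat than in mouse sites (-0.46 ± 0.11, adjusted p = 0.00839), and co-transfer minus rat did not pass (0.22, adjusted p = 0.148).

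On day 7 the Azin1 probe sets disagreed. Probe set 1450714_at ran from 2429.6 to 2713.2 over all 7 arrays of that day and was not called. Probe set 1422702_at read 1174.6, 974.6 and 1088.4 in co-transfer sites, 1019.7 and 949.9 in rat sites, and 1333.2 and 1507.4 in mouse sites. It was lower than in mouse sites by -0.38 ± 0.10 in co-transfer sites (adjusted p = 0.0155) and by -0.50 ± 0.11 in rat sites (adjusted p = 0.00792). Without mouse replicate 2 neither passed (adjusted p = 0.135 and 0.0683), and the rat call was also lost without rat replicate 2 (0.0595). On day 9 compared with day 7, 1450714_at was higher in co-transfer sites (0.42, adjusted p = 0.00461) and mouse sites (0.53, adjusted p = 0.00118) and not called in rat sites (-0.14, adjusted p = 0.240). Probe set 1422702_at was higher on day 9 in all 3 kinds of site (0.69, 0.59 and 0.56 in co-transfer, rat and mouse sites). With arrays centred on their median the rises in mouse sites were not called (adjusted p = 0.140 and 0.0748), and 1450714_at was called lower in rat sites (-0.39, adjusted p = 0.0315).

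**Figure D3:**
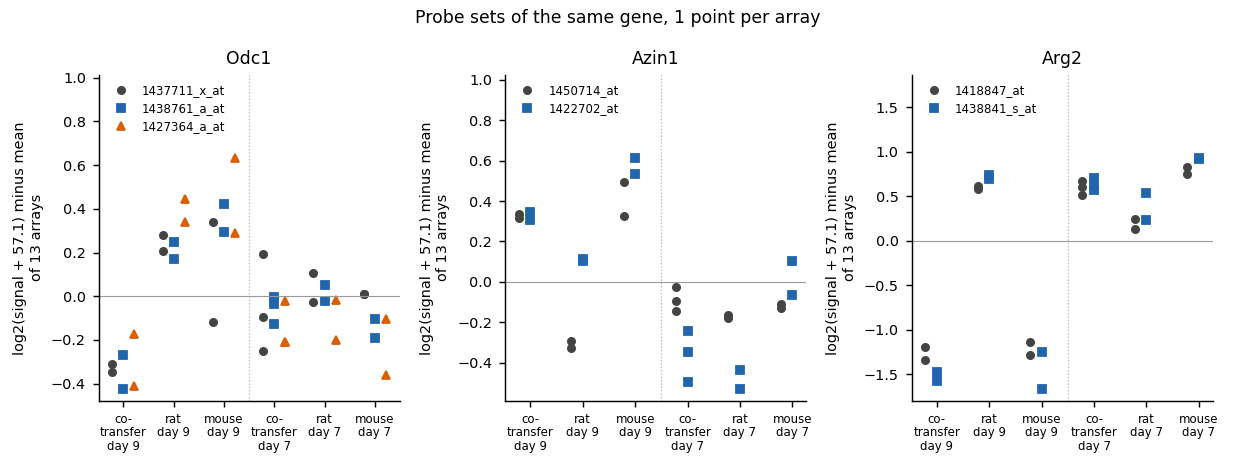
Log2(signal + 57.1) minus the mean of the 13 arrays for each tested probe set of Odc1, Azin1 and Arg2, 1 point per array, with each probe set in its own colour and symbol. The 2 Arg2 probe sets track each other (r = 0.99), while those of Odc1 (r = 0.42 to 0.83) and Azin1 (r = 0.69) agree less, and all 3 of Odc1 are low in the co-transfer sites of day 9.

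Srm, the spermidine synthase, read 3676.1 and 3555.0 in co-transfer sites, 2205.7 and 2323.8 in rat sites, and 3435.8 and 3631.4 in mouse sites of day 9. Rat sites were lowest, and co-transfer and mouse sites overlapped. The log2 change was 0.66 ± 0.09 for co-transfer minus rat (adjusted p = 0.000273) and -0.63 ± 0.09 for rat minus mouse (adjusted p = 0.000412). On day 7 the direction against mouse sites was the opposite, with 4241.3, 4442.3 and 4030.9 in co-transfer sites, 3891.8 and 3981.5 in rat sites, and 2874.1 and 2749.7 in mouse sites. Srm was higher than in mouse sites by 0.58 ± 0.08 in co-transfer sites (adjusted p = 0.000582) and by 0.48 ± 0.09 in rat sites (adjusted p = 0.00362). From day 7 to day 9 it fell in rat sites (-0.78 ± 0.09, adjusted p = 9.40e-05) and was higher on day 9 in mouse sites (0.32 ± 0.09, adjusted p = 0.0139). The mouse rise was lost without replicate 2 of day 7 (0.0788) or of day 9 (0.0707) and with arrays centred on their median (0.04, adjusted p = 0.815). In co-transfer sites the change was -0.23 (adjusted p = 0.0660), and it was called with the filter at the 80th percentile (0.0224), with array weights (0.0433) and with an intensity trend (0.0185).

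Sat1 encodes the acetyltransferase that marks spermidine and spermine for export or oxidation. On day 7 it read 9060.1, 9176.4 and 8119.2 in co-transfer sites, 7919.5 and 8394.1 in rat sites, and 11236.0 and 11244.6 in mouse sites. Both groups of rat sites lay below the mouse sites, by -0.36 ± 0.09 for co-transfer (adjusted p = 0.0137) and -0.46 ± 0.10 for rat sites (adjusted p = 0.00765). The co-transfer call was lost without either mouse array (0.0667 and 0.0751) and under quantile normalization (-0.21, adjusted p = 0.110), and the rat call without rat replicate 1 (-0.42, adjusted p = 0.0581). On day 9 Sat1 read 10772.6 and 11293.5 in co-transfer sites, 12864.4 and 12140.4 in rat sites, and 10958.3 and 9948.3 in mouse sites. Rat sites were highest, but no comparison of day 9 was called, and rat minus mouse had an adjusted p of 0.0715 (0.26, 95% interval 0.04 to 0.48), and was called with the filter at the 80th percentile (0.0303) and with an intensity trend (0.0122). Sat1 was higher on day 9 than on day 7 in rat sites (0.61 ± 0.10, adjusted p = 0.000905) and in co-transfer sites (0.33 ± 0.09, adjusted p = 0.0232). The co-transfer call was lost without either array of day 9 (0.0787 and 0.143) or without replicate 3 of day 7 (0.0641).

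The difference between rat and mouse sites itself changed from day 7 to day 9 for Aoc1 (log2 change of the difference -3.57 ± 0.13, adjusted p = 5.58e-08), Arg2 (2.40 ± 0.14, adjusted p = 1.42e-06), Srm (-1.11 ± 0.12, adjusted p = 9.64e-05), Sat1 (0.72 ± 0.14, adjusted p = 0.00310) and Azin1 (-0.67 ± 0.13, adjusted p = 0.00277). Rat minus mouse thus had opposite signs on the 2 days for Arg2 and Srm, each called on both. The value of Arg1 rests on the rat arrays of day 9, through which alone it entered the test. For Slc7a2 rat minus mouse was 0.69 on day 9 and 0.73 on day 7, and its change was not called (-0.04, adjusted p = 0.876).

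A further 41 genes of polyamine and arginine metabolism were listed, of which 30 were tested, 5 were too dim and 6 had no probe set with a single symbol. Of the 30, 8 were higher and 2 lower in co-transfer than in rat sites of day 9, 2 were higher and 0 lower in co-transfer than in mouse sites, and 3 were higher and 5 lower in rat than in mouse sites. On day 7 these counts were 0 and 0 for co-transfer minus rat, 6 and 7 for co-transfer minus mouse, and 6 and 5 for rat minus mouse. As shares of the 30, in the same order, these were 33.3%, 6.67% and 26.7% on day 9, against 33.7%, 7.72% and 31.5% of all tested probe sets, and 0%, 43.3% and 36.7% on day 7, against 0.967%, 31.2% and 24.4%. The day 9 shares were near those of all probe sets. The median log2 change of the 30 lay between -0.07 and 0.06 in these 6 comparisons.

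Gatm, which uses arginine and glycine for the first step of creatine synthesis, had the largest called change of the 30 in the 4 comparisons within a day that follow. On day 9 it read 7624.2 and 7397.9 in co-transfer sites, 424.3 and 677.5 in rat sites, and 6725.7 and 6511.3 in mouse sites, with log2 changes of 3.67 for co-transfer minus rat (adjusted p = 2.16e-07) and -3.49 for rat minus mouse (adjusted p = 2.85e-07). On day 7 it was higher than in mouse sites in both co-transfer (1.37) and rat sites (1.60). Gatm was not called between co-transfer and mouse sites of day 9 (0.18, adjusted p = 0.586). Smox, the spermine oxidase, was highest in rat sites of day 9, with 795.8 and 598.6 in co-transfer sites, 1737.3 and 1873.1 in rat sites, and 537.7 and 539.6 in mouse sites of day 9 (-1.32 for co-transfer minus rat and 1.64 for rat minus mouse). Mouse sites were highest on day 7, with 785.3, 863.2 and 855.1 in co-transfer sites, 887.2 and 805.5 in rat sites, and 1589.8 and 1552.9 in mouse sites (-0.87 for co-transfer minus mouse and -0.85 for rat minus mouse, both called).

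Among the transporters, Slc7a7, a light chain that exchanges cationic for neutral amino acids, was lower than in mouse sites on day 7 in co-transfer (-1.34, adjusted p = 0.000294) and rat sites (-1.42, adjusted p = 0.000479). On day 9 it read 288.1 and 271.1 in co-transfer sites, 738.5 and 763.2 in rat sites, and 407.4 and 494.9 in mouse sites, and was higher in rat than in mouse sites (0.67, adjusted p = 0.0174). Slc7a6, a related light chain, and Slc7a1, the widely expressed arginine carrier, were the only listed genes called between co-transfer and mouse sites of day 9. Slc7a6 read 1444.3 and 1541.5 in co-transfer and 924.5 and 906.3 in mouse sites (0.67, adjusted p = 0.00692), and was lost without co-transfer replicate 2 (0.0617). Slc7a1 read 1682.3 and 1621.7 in co-transfer and 1163.7 and 1184.7 in mouse sites (0.47, adjusted p = 0.0431), and was lost without any 1 of the 4 arrays (adjusted p = 0.106 to 0.188).

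**Figure D4:**
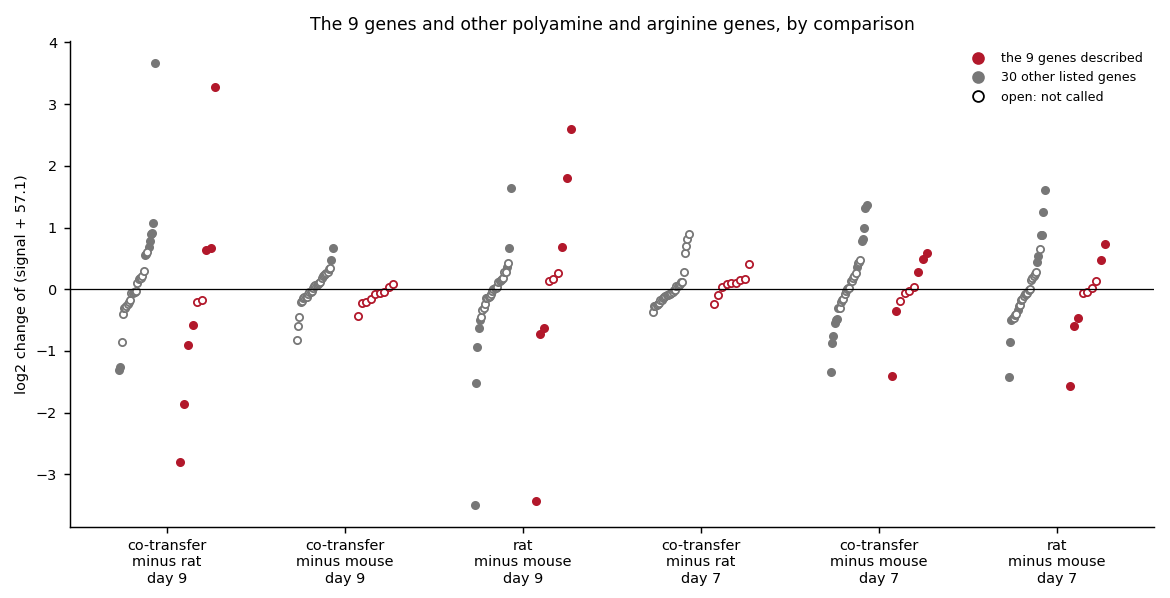
Log2 change of (signal + 57.1) in the 6 comparisons within a day for the 9 genes (red) and the 30 other listed genes (grey), 1 point per gene in rising order, filled where called. The widest spread is in both comparisons that involve the rat sites of day 9, where Gatm (3.67 and -3.49) and Aoc1 (3.28 and -3.43) lie at the ends on the same side.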

How the data were processed

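The deposited intensity values are MAS5 signals on a linear scale, 1 for each of 45101 probe sets, per the submitters' processing notes, which give no version. The instrument settings in the deposited experiment files (unit other) gave scan date, scanner and hybridisation time, with gaps over 30 minutes taken as a new batch (4 batches). Symbols came from the platform annotation.

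Signals were transformed to log2(signal + 57.1), where 57.1 is the 25th percentile of all values, so changes of dim probe sets are understated. A probe set was tested if it was no AFFX control (64 left out) and 2 or more arrays had it above their own 60th percentile, which left 22138. The limma package 3.58.1 (R 4.3.3; lmFit and eBayes) fitted a mean per group on the 13 arrays together (7 residual and 2.71 prior degrees of freedom), since groups of 2 need a shared spread. The 9 comparisons and 3 changes of a difference were each adjusted by Benjamini-Hochberg and called at an adjusted p under 0.05. The number of arrays limits the precision.

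The genes, the lists and the tests were chosen with earlier results of these data known. All 17 probe sets with a single symbol, of 9 of the 10 genes, are described, each gene first through the tested one whose log2 signals had the highest mean. Of the other pathway genes, up to 2 called per comparison within a day were named, by the size of the change, and for Odc1, Arg1 and Aoc1 the 3 genes most correlated over 13 arrays. Samples were not treated as paired by replicate number. The 30 correlations of same-numbered deviations ran from -0.21 to 0.09. In groups of 2 the deviations are equal and opposite, so these values are not all separate. They cannot show that samples were unpaired. The scripts were tested on simulated data. Alternatives were other pseudocounts, filters, normalizations, array weights, replicate and scan blocks, an intensity trend, fits of only the groups compared, and leaving out each array.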

Additional observations from a re-analysis of the deposited data

Results flagged for a closer look

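Several differences between groups changed between the days by a test of the change itself (limma, day 9 minus day 7 of the difference, log2 scale, adjusted p in parentheses). For co-transfer minus rat sites these were Aoc1 with 3.13 (3.97e-07), Arg2 with -2.27 (3.07e-06) and -2.48 (1.60e-05) in its 2 probe sets, Slc7a2 with -0.67 (0.0164), Srm with 0.56 (0.00701) and Azin1 with 0.56 (0.00799). Arg1, with -2.96, entered the test only through the rat arrays of day 9, so that value is not used as a result. Odc1 changed by -0.48 (0.0242) in probe set 1438761_a_at and by -0.64 (0.0439) in 1427364_a_at. The Slc7a2 change was lost without rat replicate 1 of day 7 (0.0607) or co-transfer replicate 2 of day 9 (0.0516). The Odc1 change of 1427364_a_at was lost without any 1 of 8 of the 9 arrays compared, with adjusted p of 0.0555 to 0.151, and that of 1438761_a_at without rat replicate 2 of day 7 (0.0845), rat replicate 1 of day 9 (0.0748) or co-transfer replicate 2 of day 9 (0.0979). With arrays centred on their median 3 of these were not called, namely Slc7a2 (-0.43, adjusted p = 0.129), 1438761_a_at (-0.24, 0.382) and 1427364_a_at (-0.40, 0.173), and the same 3 were lost without the filter on dim probe sets (0.0545, 0.0874 and 0.110).

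For co-transfer minus mouse sites the changes were Arg1 with 1.20 (0.00903), Srm with -0.55 (0.0121), Slc7a2 with -0.71 (0.0182), Aoc1 with -0.44 (0.0356), Sat1 with 0.43 (0.0468), and Odc1 with -0.79 (0.00355) in 1438761_a_at and -0.84 (0.0205) in 1427364_a_at. Several of these were lost when a single array was left out, with adjusted p of up to 0.116 for Aoc1, 0.140 for Sat1, 0.0638 for Slc7a2 and 0.0795 for 1427364_a_at of Odc1. With arrays centred on their median the calls of Srm (-0.27, adjusted p = 0.228), Slc7a2 (-0.43, 0.127), Aoc1 (-0.16, 0.517) and both Odc1 probe sets (-0.51 and -0.56, 0.0729 and 0.0704) were lost. Arg1 was lost with an intensity trend (0.109). Without the filter on dim probe sets, Srm (0.0564), Slc7a2 (0.0592), 1427364_a_at of Odc1 (0.0602), Aoc1 (0.120) and Sat1 (0.140) were lost. Sat1 and Slc7a2 were also lost under quantile normalization (0.176 and 0.0743). Sat1 and Aoc1 were lost with the replicate number (0.109 and 0.0893) or scan date (0.0806 and 0.0654) as a block. Both were lost when only the arrays of the groups compared were fitted (0.0813 and 0.0727). Sat1 was also lost with a constant of 16 (0.0506).

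For rat minus mouse sites they were Aoc1 with -3.57 (5.58e-08), Arg2 with 2.40 (1.42e-06) and 2.72 (6.73e-06), Srm with -1.11 (9.64e-05), Sat1 with 0.72 (0.00310) and Azin1 with -0.67 (0.00277). Arg1, with 4.16, entered the test only through the rat arrays of day 9, so its value is not used as a result. Hybridisation batch cannot be told apart from group and day in these 3 tests.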

How the results depend on the processing

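Of the 82 called changes of single probe sets, 50 kept their direction and their call in every alternative that gave a value, 32 lost the call at least once, and 0 changed sign. Beside leaving out arrays, calls were lost with no filter on dim probe sets (20), with arrays centred on their median (20), with only the arrays of the groups compared (15), with the replicate number (8) or scan date (6) as a block, under quantile normalization (5), with a constant of 16 (1) and with an intensity trend (1). Further changes were called with centring (4), an intensity trend (4), the filter at the 80th percentile (3), quantile normalization (2) and array weights (1). Arg1 and Slc7a2 have no value with the filter at the 80th percentile, which they did not pass. Leaving out 1 array at a time gave, for the number of the probe sets called on day 9, 8 to 9 for co-transfer minus rat, 1 to 2 for co-transfer minus mouse and 8 to 8 for rat minus mouse, and on day 7, 0 to 0, 3 to 6 and 5 to 6 in the same order. For day 9 minus day 7 it gave 6 to 8 in co-transfer, 5 to 7 in rat and 8 to 10 in mouse sites, and for the changes of a difference 6 to 9 (co-transfer minus rat), 3 to 7 (co-transfer minus mouse) and 7 to 7 (rat minus mouse). In a group left with 1 array, that array is assumed to vary like the others. With no filter on dim probe sets the counts were 3 for co-transfer minus mouse on day 7, 1 on day 9 and 2 for the change of that difference, and the last was also 2 with arrays centred on their median. With the filter at the 80th percentile, co-transfer minus rat on day 7 had 1 call (Arg2). When only the arrays of the groups compared were fitted, which lowers the degrees of freedom, co-transfer minus mouse had 2 calls on day 7 and 0 on day 9. The cause of the other shifts was not tested.

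With the replicate number as a block, although pairing by number could not be shown, the counts were 10, 2 and 8 on day 9 (co-transfer minus rat, co-transfer minus mouse, rat minus mouse) and 0, 4 and 7 on day 7. Centring each array on its median moved the median change of all tested probe sets by -0.29 in mouse and -0.25 in rat sites between the days, and the share of higher among called probe sets to 23.0% and 26.2%, against 49.6% and 51.0% as reported.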
